A study of Homo sapiens with 12 samples.

Results

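The 7 sirtuin genes SIRT1 to SIRT7 and 3 genes that supply their co-substrate NAD, namely NAMPT, NMNAT1 and NADSYN1, were followed in RNA-sequencing libraries of a human breast cancer line. The 10 genes were taken by their symbols from a table of 60664 genes, and each symbol stood on a single row. The study sequenced RNA of MDA-MB-231 (total RNA per the labels, polyadenylated RNA per the methods), an established triple-negative and mesenchymal-like breast cancer cell line. It compared wild-type (WT) cells that were left untreated in normoxia, WT cells kept in hypoxia for 24 hr, and untreated cells with the genotype CCAR2-/- (CCAR2 KO). Each of the 3 groups held 4 libraries, and the KO was not placed in hypoxia. The KO had been made with a lentiviral CRISPR construct, and the methods do not say whether the cells were 1 clone or a pool.

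Sirtuins remove acetyl and other acyl groups from lysines and consume NAD in each round, so that nicotinamide is released as a product. NAMPT turns nicotinamide into nicotinamide mononucleotide and is rate-limiting in the salvage route, NMNAT1 turns that mononucleotide into NAD in the nucleus, and NADSYN1 performs the last step of the routes that start from nicotinic acid or tryptophan. CCAR2 encodes DBC1, a nuclear protein that binds the catalytic region of SIRT1 and inhibits it. SIRT1, SIRT6 and SIRT7 are mainly nuclear, SIRT2 is mainly cytosolic, and SIRT3, SIRT4 and SIRT5 are mitochondrial.

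The labels were first checked against the targeted gene. CCAR2, in CPM (counts scaled to a common library size by the trimmed mean of M-values, TMM), stood at 144, 145, 146 and 151 CPM in WT normoxia, at 149, 143, 154 and 152 in WT hypoxia and at 54.7, 56.7, 61.3 and 58.5 in the KO. Every KO library lay below every WT library, and about 40% of the WT transcript level remained (fold 0.395, adjusted p = 2.1e-09). CA9, a hypoxia target that encodes a carbonic anhydrase, was between 4.43 and 5.40 CPM in hypoxia and at most 0.0948 CPM in WT normoxia. Counts summed to between 153904088 and 213743693 per library in WT normoxia, between 76384973 and 195621872 in WT hypoxia and between 68599412 and 152328450 in the KO, so the 3 shallowest libraries were 2 of hypoxia and 1 of the KO. Of 6 markers of other cells, PTPRC, CD3E, CDH5 and HBB stayed under 1 CPM in every library while CD68 and PECAM1 did not, and the summed level of the 6 was between 89.4 and 99.8 CPM in WT normoxia, between 100.6 and 119 in hypoxia and between 78.1 and 88.0 in the KO. CD68 made up most of that sum and was lower in the KO (log2 fold change -0.27, adjusted p = 0.0019), whereas PECAM1 rose there from 2.56 to 5.51 CPM (log2 fold change 1.11, adjusted p = 8.9e-05). The part of these markers in the results was not tested. All 6 of the basal and mesenchymal-like genes were expressed, with VIM at 5103 CPM in WT normoxia. ZEB1, a repressor of epithelial genes, fell in hypoxia from 62.6 to 43.9 CPM (log2 fold change -0.52, adjusted p = 0.0012). Of the luminal markers ESR1, PGR, CDH1 and TFF1 stayed under 1 CPM in every library while GATA3 and KRT19 did not. KRT19 rose in hypoxia from 624 to 796 CPM (log2 fold change 0.34, adjusted p = 0.0070). With a trend in transcript GC content removed, its value was 0.17 (adjusted p = 0.14). The summed level of the 6 luminal markers was between 559 and 675 CPM in WT normoxia. It was between 752 and 891 in hypoxia and between 459 and 516 in the KO.

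In hypoxia, 5 of the 10 genes passed the test at an adjusted p under 0.05, in both directions. Of all genes tested in hypoxia, 11.6% were called higher and 12% lower. SIRT5, SIRT3 and NADSYN1 rose and SIRT1 and NAMPT fell, each by between 23% and 43%. In the CCAR2 KO none of the sirtuins passed, whereas NAMPT and NADSYN1 rose by 24% and 18%. Of all genes tested in the KO, 14.9% were called higher and 15.4% lower. NADSYN1 was therefore higher than WT normoxia in both conditions, and NAMPT was lower in hypoxia and higher in the KO.

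**Figure D1:**
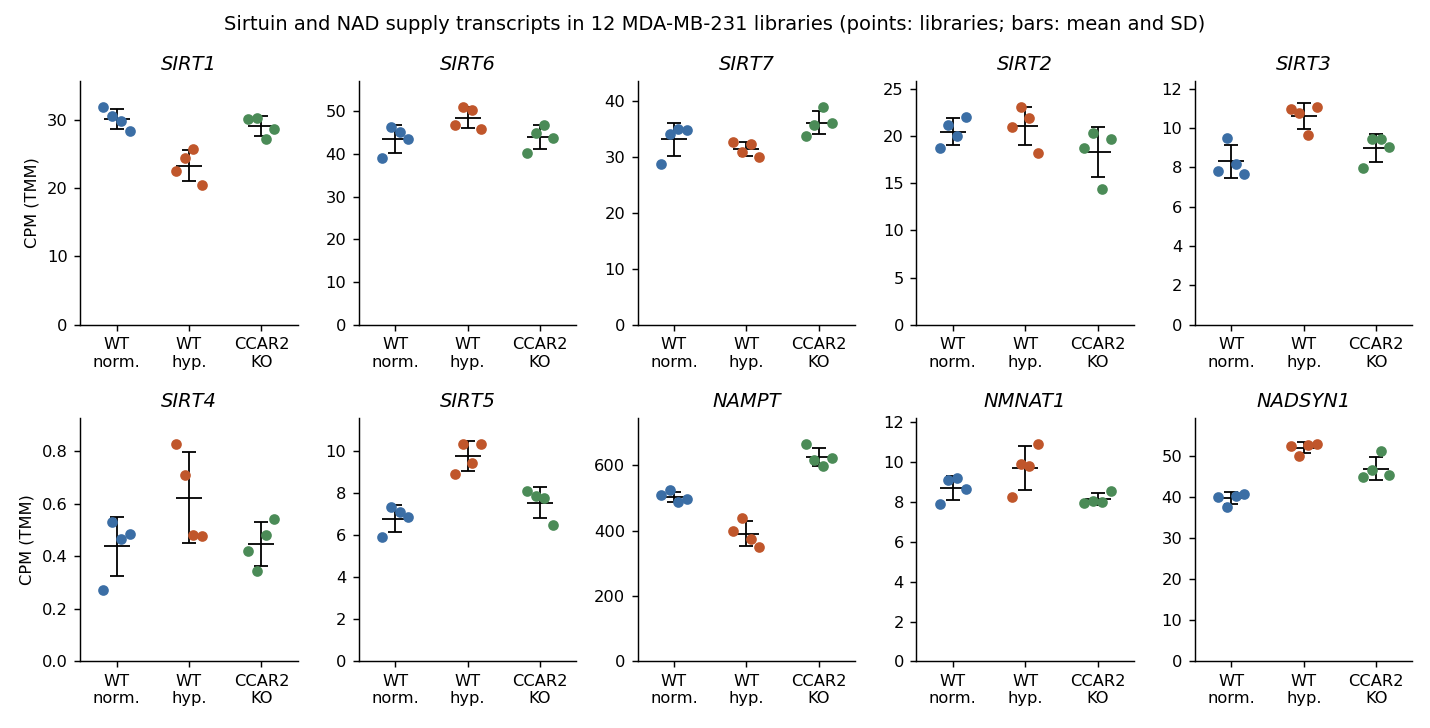
Level of each of the 10 genes in TMM-scaled CPM (vertical axes, each from 0) in WT normoxia, WT hypoxia and CCAR2 KO. Points are the 4 libraries of a group and bars are the mean and SD. The libraries of hypoxia lie apart from those of WT normoxia for SIRT1, SIRT3, SIRT5, NAMPT and NADSYN1, and the KO libraries for NAMPT and NADSYN1.

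Because the experiment changed oxygen, the DNA just before the start sites is shown for 4 of the 5 members that passed in hypoxia. Hypoxia-inducible factors bind sites with the core ACGTG or GCGTG, and factors of the MYC and CLOCK family bind CACGTG, which holds ACGTG on both strands. In the 250 bases before the start, either core occurred on either strand in 43.2% of 35116 RefSeq promoters of GRCh38.p14, ACGTG in 18.5%, GCGTG in 32.2% and CACGTG in 6.34%. Of the 10 members, 9 had an entry, all but SIRT7, with 12 windows in all, and 8 windows of 8 members held a core. Bases that match a core on either strand are in capitals, and only bases that lie in no GENCODE exon are printed for the first 3 sequences. SIRT1, which fell in hypoxia, is shown on the plus strand (chr10:67884406-67884655), NADSYN1, which rose, up to the first annotated exon base (chr11:71452953-71453108, plus strand), and SIRT5, which rose, before the upstream of its 2 starts (chr6:13574279-13574528, plus strand). For NAMPT, which fell, the match and 10 bases on either side are shown on the minus strand (chr7:106285082-106285106), a stretch that lies in an alternative exon.
SIRT1: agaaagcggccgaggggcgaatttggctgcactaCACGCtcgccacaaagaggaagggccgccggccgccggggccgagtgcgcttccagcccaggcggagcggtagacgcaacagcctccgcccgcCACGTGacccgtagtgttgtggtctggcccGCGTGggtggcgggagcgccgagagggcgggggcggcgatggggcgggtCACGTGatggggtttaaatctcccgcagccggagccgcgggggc
NADSYN1: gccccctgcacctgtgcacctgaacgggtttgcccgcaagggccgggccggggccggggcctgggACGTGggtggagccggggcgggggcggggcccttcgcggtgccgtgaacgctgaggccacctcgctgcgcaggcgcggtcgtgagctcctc
SIRT5: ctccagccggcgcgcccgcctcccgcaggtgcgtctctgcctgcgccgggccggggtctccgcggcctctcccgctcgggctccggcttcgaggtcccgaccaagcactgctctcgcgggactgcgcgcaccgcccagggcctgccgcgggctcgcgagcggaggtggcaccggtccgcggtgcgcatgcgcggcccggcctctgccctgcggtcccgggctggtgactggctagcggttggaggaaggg
NAMPT: agactgcgagCACGCgagccgccgc
The SIRT1 window held 4 separate matches, 2 of them CACGTG, with first bases 216, 123, 93 and 44 bases before the start. The NADSYN1 window held 1 match 185 bases before the start, and the NAMPT window 1 match 113 bases before it. The printed SIRT5 window held none, and the window before its second start held GCGTG 14 bases before that start. The window of SIRT3, which also rose, is not printed because most of it lies in annotated exons, and it held no match. Such letters describe the sequence and show no binding.

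Of the nuclear sirtuins SIRT1 passed in hypoxia and none passed in the KO. SIRT1, the deacetylase that DBC1 inhibits, was at 31.8, 30.5, 29.8 and 28.3 CPM in WT normoxia. Under hypoxia the values were 22.5, 24.4, 25.8 and 20.5 CPM. The KO libraries had 30.2, 30.3, 27.1 and 28.6 CPM. All 4 hypoxia libraries were below all other libraries, and the KO overlapped with WT normoxia. The log2 fold change in hypoxia was -0.38 ± 0.07 (SE; 95% interval -0.54 to -0.21, adjusted p = 0.0044 in edgeR's quasi-likelihood test). In a bulk culture, fewer expressing cells and less RNA per cell cannot be told apart. From Western blots of this line the study reported no change of SIRT1 protein stability in hypoxia, a measure unlike the RNA level. In the KO the log2 fold change of SIRT1 was -0.05 (95% interval -0.18 to 0.07, adjusted p = 0.54).

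SIRT6, a chromatin deacylase and mono-ADP-ribosyltransferase, ranged from 39.0 to 46.4 CPM in WT normoxia, from 46.0 to 51.0 in hypoxia and from 40.2 to 46.8 in the KO. The groups overlapped in both comparisons with WT normoxia. Its log2 fold change was 0.15 in hypoxia (95% interval 0.00 to 0.29, adjusted p = 0.13) and 0.01 in the KO (95% interval -0.13 to 0.15). In hypoxia SIRT6 was at -0.06 with the GC trend removed (adjusted p = 0.52) and passed at 0.20 with upper-quartile scaling (adjusted p = 0.043). SIRT7, a deacetylase of the nucleolus, ranged from 28.7 to 35.0 CPM in WT normoxia, from 29.9 to 32.6 in hypoxia and from 33.7 to 38.8 in the KO. Neither difference from WT normoxia passed, with a log2 fold change of -0.08 in hypoxia (95% interval -0.24 to 0.07) and 0.12 in the KO (95% interval -0.03 to 0.27). After a trend with transcript GC content was removed, SIRT7 in hypoxia passed at -0.21 (adjusted p = 0.043). SIRT2, which deacetylates tubulin among other proteins, had a mean of 20.4 ± 1.42 CPM in WT normoxia, 21.0 ± 2.04 in hypoxia and 18.3 ± 2.69 in the KO (SD, n = 4). The groups overlapped, and the log2 fold changes were 0.03 (95% interval -0.15 to 0.22) and -0.16 (95% interval -0.39 to 0.06).

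Of the mitochondrial sirtuins, SIRT5 and SIRT3 were called higher in hypoxia, SIRT3 not in every setting, and SIRT4 was not called. SIRT5, which removes succinyl, malonyl and glutaryl groups, was at 5.90, 7.32, 7.10 and 6.86 CPM in WT normoxia. It was at 8.89, 10.3, 9.44 and 10.3 CPM in hypoxia. KO libraries were at 8.10, 7.88, 7.75 and 6.48 CPM. The hypoxia libraries were the 4 highest of the 12, and the KO overlapped with WT normoxia. The log2 fold change in hypoxia was 0.51 ± 0.09 (SE; 95% interval 0.30 to 0.72, adjusted p = 0.0031), the largest of the 10 members among those that passed. In the KO it was 0.15 (95% interval -0.07 to 0.37, adjusted p = 0.29).

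SIRT3, the main deacetylase of the mitochondrial matrix, was at 7.83, 9.50, 8.18 and 7.67 CPM in WT normoxia. It was at 10.9, 10.8, 9.61 and 11.1 CPM in hypoxia. The values of the KO were 7.95, 9.45, 9.44 and 9.03 CPM. The highest library of WT normoxia and the lowest of hypoxia differed by little. SIRT3 rose in hypoxia with a log2 fold change of 0.34 ± 0.09 (SE; adjusted p = 0.018), and in the KO the value was 0.11 (95% interval -0.09 to 0.31). The call in hypoxia was lost without WT normoxia replicate 1, 3 or 4 or WT hypoxia replicate 4 (adjusted p up to 0.056) and without the 3 shallowest libraries (adjusted p = 0.071), and with the GC trend removed the log2 fold change was 0.20 (adjusted p = 0.16). SIRT4, a mitochondrial lipoamidase and ADP-ribosyltransferase, had between 24 and 97 counts per library, a level of 0.272 to 0.530 CPM in WT normoxia, 0.476 to 0.828 in hypoxia and 0.344 to 0.541 in the KO. Neither difference of SIRT4 passed, with wide 95% intervals of the log2 fold change from -0.14 to 1.11 in hypoxia and from -0.54 to 0.61 in the KO.

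NAMPT was the member with opposite changes. It was at 509, 523, 488 and 496 CPM in WT normoxia. It was at 400, 440, 375 and 349 CPM in hypoxia. In the KO it was at 665, 616, 596 and 622 CPM. None of the 3 groups overlapped, with hypoxia lowest and the KO highest. The log2 fold change from WT normoxia was -0.37 ± 0.07 in hypoxia (SE; 95% interval -0.53 to -0.22, adjusted p = 0.0035). In the KO it was 0.31 ± 0.04 (SE; 95% interval 0.21 to 0.41, adjusted p = 0.00022). These 2 comparisons share the WT normoxia libraries. KO against hypoxia, which shares the libraries of both and differs in genotype and in oxygen, gave 0.67 ± 0.07 (SE; adjusted p = 2.4e-05). With the GC trend removed, the fall in hypoxia was smaller at -0.19 (adjusted p = 0.017), while the KO value was 0.36 (adjusted p = 9.1e-06).

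Part of NAMPT's reads cannot be assigned with certainty, since processed pseudogenes copy its messenger RNA. NAMPTP1 had a mean of 54.2 ± 2.70 CPM in WT normoxia, 45.0 ± 2.02 in hypoxia and 66.2 ± 4.67 in the KO (SD, n = 4). The level of NAMPT was between 8.02 and 9.83 times that of NAMPTP1 over the 12 libraries. NAMPTP1 passed with the signs of its parent gene, at a log2 fold change of -0.28 in hypoxia (adjusted p = 0.0047) and 0.29 in the KO (adjusted p = 0.0020). With the GC trend removed, its value in hypoxia was -0.08 (adjusted p = 0.33). The other named NAMPT pseudogenes were at 0 in all libraries.

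NADSYN1 was at 40.2, 37.7, 40.4 and 40.9 CPM in WT normoxia. It was at 52.6, 50.1, 52.7 and 53.0 CPM in hypoxia. Its levels in the KO were 44.9, 46.6, 51.2 and 45.4 CPM. Hypoxia and the KO lay above WT normoxia in every library, and 1 KO library reached the range of hypoxia. The log2 fold change was 0.38 ± 0.05 in hypoxia (SE; 95% interval 0.27 to 0.49, adjusted p = 0.00043) and 0.24 ± 0.05 in the KO (SE; 95% interval 0.13 to 0.36, adjusted p = 0.0041). With the GC trend removed these were 0.25 (adjusted p = 0.0032) and 0.19 (adjusted p = 0.0044). NMNAT1 ranged from 7.90 to 9.20 CPM in WT normoxia, from 8.23 to 10.9 in hypoxia and from 7.95 to 8.57 in the KO. Neither difference passed, with a log2 fold change of 0.15 in hypoxia (95% interval -0.06 to 0.36) and -0.10 in the KO (95% interval -0.26 to 0.07).

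Read against all genes tested, the counts were as follows. In hypoxia 3 of 10 members were higher and 2 lower, beside 11.6% of all 21776 genes tested that were called higher and 12% lower. With the additional fold limit of the study, at least 0.5 in either direction on the log2 scale, SIRT5 alone remained, beside 5.83% of genes higher and 1.43% lower. In the KO 2 of 10 were higher and 0 lower, beside 14.9% and 15.4% of 21410 genes. At an unadjusted p under 0.05 the same 2 genes and no others stood out in the KO, and DESeq2 also called 0 members lower. With the fold limit no member was called, beside 6.73% of genes higher and 2.94% lower. In KO against hypoxia SIRT1, SIRT7 and NAMPT were higher and SIRT5 and NADSYN1 lower, beside 17.1% and 17.8% of 21158 genes. With the fold limit NAMPT alone was higher and no member lower, beside 7.08% and 7.88% of genes. In this comparison the call of SIRT7 was lost without KO replicate 3 or hypoxia replicate 4 (adjusted p up to 0.073), and that of NADSYN1, at an adjusted p of 0.048, without replicate 1, 2 or 4 of the KO or replicate 1, 3 or 4 of hypoxia (adjusted p up to 0.14). With the GC trend removed NADSYN1 was at -0.06 in this comparison (adjusted p = 0.29). The calls of SIRT1, SIRT7 and NADSYN1 were also lost without the 3 shallowest libraries. In single-gene exact permutation tests over the 4 against 4 libraries, two-sided, each member that passed against WT normoxia reached p = 0.0286, the smallest value this design allows. The methods speak of biological replicates but in other numbers than the 4 libraries per group, and the labels do not say that these came from separate cultures. The p-values therefore measure the spread between these libraries, which may be in part technical.

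**Figure D2:**
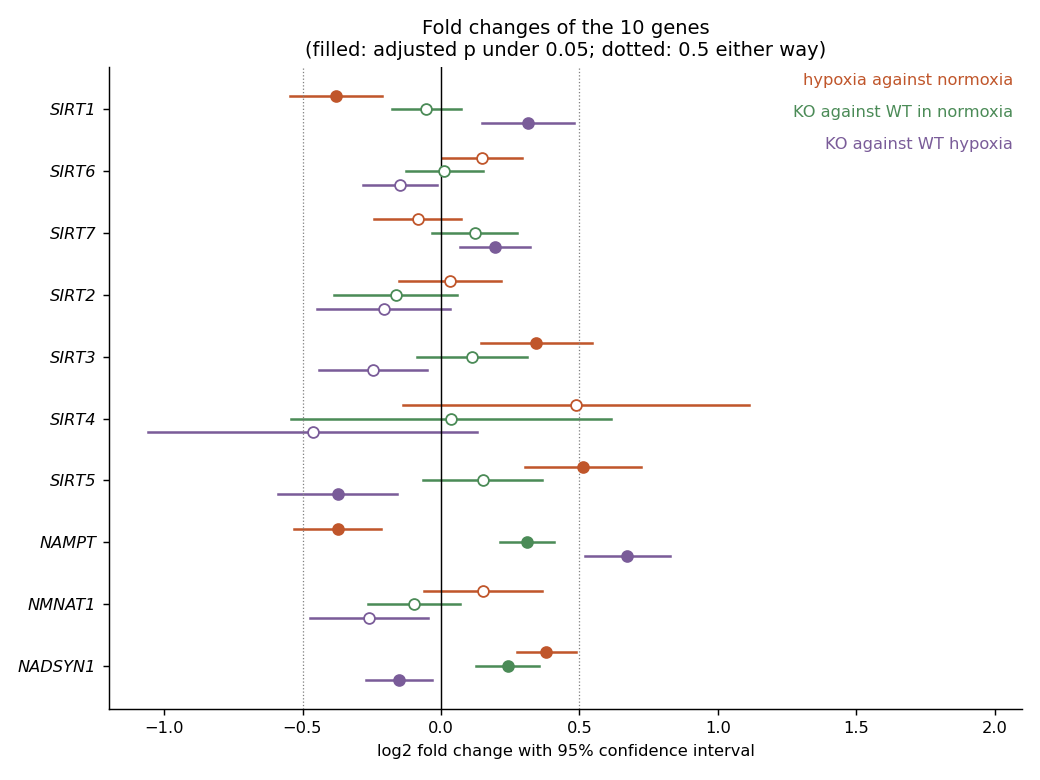
Log2 fold change (horizontal axis) of each member in hypoxia against normoxia, in KO against WT in normoxia and in KO against WT hypoxia, with 95% confidence intervals. Filled points have an adjusted p under 0.05, and dotted lines mark 0.5 either way. NAMPT stands at -0.37, 0.31 and 0.67 in the 3 comparisons.

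Transcript GC content moved with the hypoxia values. Over all genes tested, the median log2 fold change in hypoxia went from -0.17 to 0.18 between the genes of lowest and of highest GC, in 5 equal bins of genes, and in the KO from -0.04 to 0.04. Of the members, NAMPT had 36.3% and SIRT1 40.5% GC in the longest transcript, the lowest of the 10, and both fell in hypoxia. SIRT5 at 48.2% GC rose by 0.51 on the log2 scale both with and without the trend. With the trend removed, SIRT1 in hypoxia was at -0.25 (adjusted p = 0.019). Whether the trend arose in the cells or in the libraries was not tested.

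**Figure D3:**
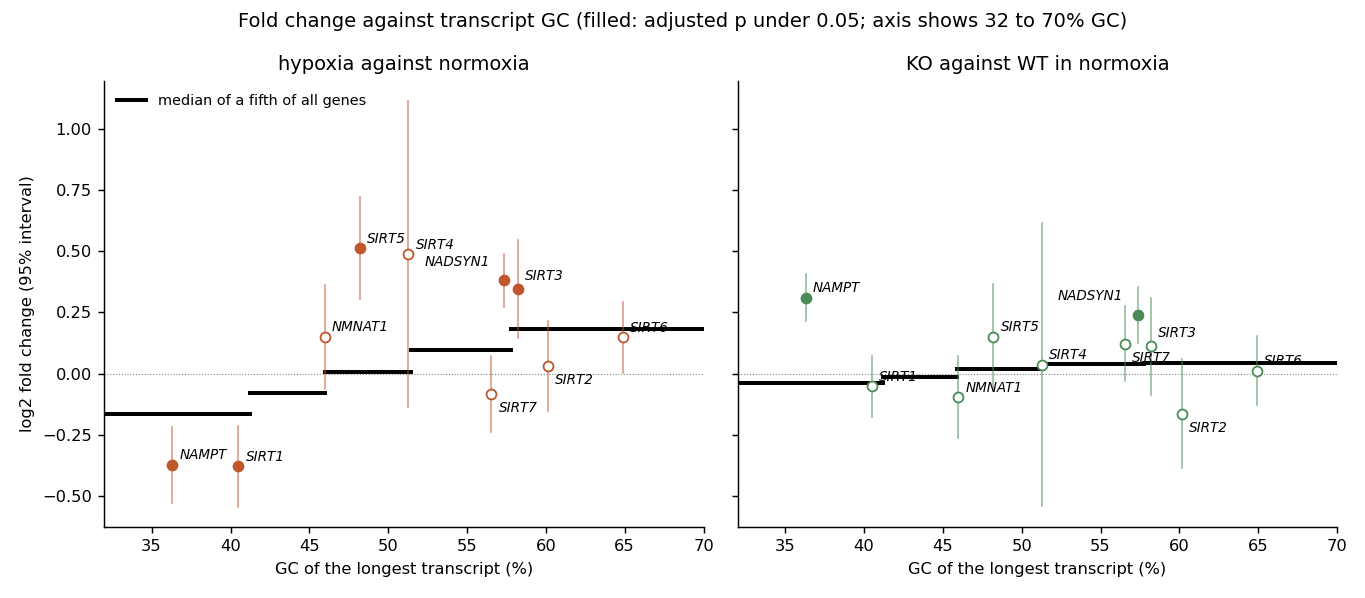
Log2 fold change with 95% interval (vertical axis) of the members against the GC content of their longest transcript (horizontal axis, %), in hypoxia and in the KO. Black bars are medians of all genes tested in 5 equal bins by GC content, from -0.17 to 0.18 in hypoxia and from -0.04 to 0.04 in the KO. Filled points have an adjusted p under 0.05.

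Levels can be compared between genes only per length. Per kilobase of merged exons, NAMPT led in WT normoxia with 55.7 ± 1.68 CPM per kilobase, followed by SIRT6 with 15.6 ± 1.17 and SIRT1 with 6.62 ± 0.32 (SD, n = 4). SIRT7, SIRT2, NADSYN1, NMNAT1, SIRT3, SIRT5 and SIRT4 came next, down to 0.36 ± 0.09 for SIRT4. In this group only the neighbours NMNAT1 and SIRT3 overlapped in their libraries. The merged exons of NADSYN1 span 16263 bases and those of SIRT7 6152, against 2773 and 1743 bases in their principal transcripts. With the length of the principal transcript SIRT7 and NADSYN1 came next after SIRT6, at 19.0 and 14.3 CPM per kilobase, ahead of SIRT2 and SIRT1. With the median length over a gene's transcripts NADSYN1 at 48.5 and SIRT7 at 43.9 CPM per kilobase stood above SIRT6. NAMPT led and SIRT5 and SIRT4 came last with each of the 3 lengths. SIRT3, SIRT4 and SIRT5 together made up 8.82% ± 0.46 of the summed level of the 7 sirtuins in WT normoxia, 11.6% ± 0.97 in hypoxia and 9.50% ± 0.20 in the KO (per kilobase of merged exons, SD, n = 4). The lowest hypoxia library, at 10.2%, was above the highest of WT normoxia at 9.48%, and the KO overlapped with WT normoxia.

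**Figure D4:**
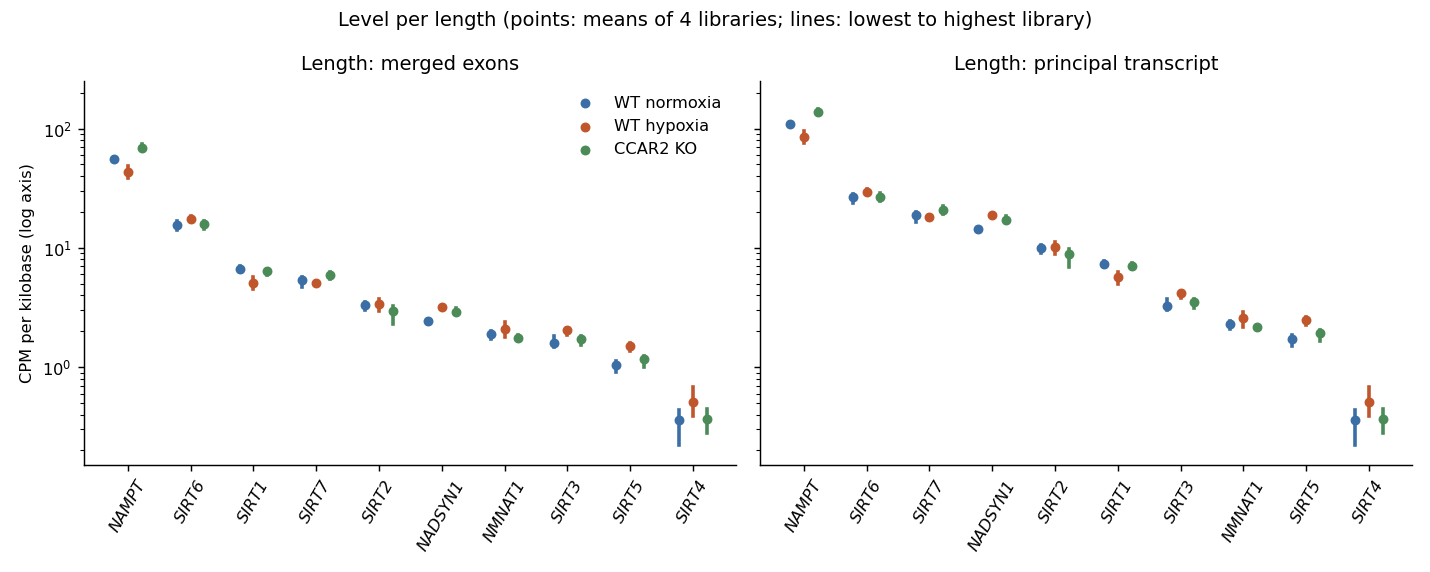
Level in CPM per kilobase (vertical log axis) of the 10 genes, ordered by WT normoxia, with the length of the merged exons (left) and of the principal transcript (right). Points are means of 4 libraries and lines run from the lowest to the highest library. NAMPT at 55.7 and SIRT6 at 15.6 CPM per kilobase of merged exons lead in WT normoxia, and SIRT4 is last.

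By the GENCODE v29 annotation on GRCh38, SIRT1 lies on chromosome 10 (67884669-67918390, plus strand), SIRT3 on chromosome 11 (215458-236931, minus), SIRT5 on chromosome 6 (13574529-13615158, plus), NAMPT on chromosome 7 (106248285-106286326, minus) and NADSYN1 on chromosome 11 (71453109-71524107, plus). Exons of SIRT3 share 316 bases with PSMD13 on the opposite strand, and PSMD13 did not pass in hypoxia (log2 fold change -0.08, adjusted p = 0.55). Exons of SIRT5 share 1045 bases with an antisense gene, AL441883.1, that was at most 0.0262 CPM in any library. Those of NAMPT share 786 bases with the antisense gene AC007032.1, at most 0.232 CPM. Exons of SIRT7 share 105 bases with MAFG on the same strand, which fell in hypoxia (log2 fold change -0.24, adjusted p = 0.030). Whether the counting used strand is not given in the sources used here. Without it, reads from opposite-strand partners cannot be told apart, and reads in the SIRT7 and MAFG overlap cannot be told apart either way.

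Among the other genes of NAD synthesis, a list of 15, 10 were tested in hypoxia and 1 was higher and 1 lower, beside 11.6% and 12% of all genes. The median on the log2 scale was 0.07 beside 0.01 over all genes. NMRK1, a nicotinamide riboside kinase, rose from 1.31 to 2.18 CPM (log2 fold change 0.73, adjusted p = 0.012). KYNU, the kynureninase of the tryptophan route, fell from 0.553 to 0.237 CPM (log2 fold change -1.24, adjusted p = 0.0065) at very low levels, a value outside the naming rule that was chosen after it was seen. In the KO 2 of 10 were higher and 2 lower, beside 14.9% and 15.4% of all genes. The median was 0.37 beside 0.01 over all genes. It lay between NMNAT3 (0.36, adjusted p = 0.74), a gene of few counts, and NMRK1 (0.39, adjusted p = 0.088), and neither passed. Also at few counts, IDO1 stood at 1.67, KMO at 0.42 and QPRT at -0.71, and none passed (adjusted p = 0.090, 0.83 and 0.46). The 2 lower genes were PNP at -0.13 and AFMID at -0.26 (adjusted p = 0.016 and 0.012). The median thus does not show a general rise of the list. NMNAT2, the mainly cytosolic enzyme with the reaction of NMNAT1, rose from 33.5 ± 2.99 to 62.8 ± 4.04 CPM (SD, n = 4; log2 fold change 0.91, adjusted p = 1.1e-06), and KYNU from 0.553 to 2.04 CPM (log2 fold change 1.88, adjusted p = 2.2e-05). Of 9 genes of NAD phosphorylation, transport and nicotinamide disposal, 8 were tested. In hypoxia 1 was higher and 2 lower, beside 11.6% and 12% of all genes. With the GC trend removed, these calls, of SLC12A8, NADK2 and NNT, were lost (adjusted p = 0.052, 0.90 and 0.67). SLC25A51 passed as lower in that setting (log2 fold change -0.28, adjusted p = 0.026). The single call in the KO, beside 14.9% of all genes higher and 15.4% lower, was AOX1, an aldehyde oxidase that oxidises methylated nicotinamide. It fell from 56.8 to 35.5 CPM (log2 fold change -0.68, adjusted p = 1.1e-06).

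Other NAD consumers, mainly poly(ADP-ribose) polymerases, form a list of 19. In hypoxia 3 of 17 tested were higher and 3 lower, beside 11.6% and 12% of all genes tested. With the GC trend removed, PARP8 and PARP16 lost their calls in hypoxia (adjusted p = 0.14 and 0.092), and the others kept theirs. In the KO 6 of 18 were higher and 1 lower, beside 14.9% and 15.4% of all genes. The lower gene was PARP1, at 353 CPM in WT normoxia and 281 in the KO (log2 fold change -0.33, adjusted p = 1.7e-05). PARP14, PARP10 and PARP9 were among those that rose in the KO, with log2 fold changes of 0.85, 0.72 and 0.69 (adjusted p = 3.4e-07, 6.8e-06 and 4.5e-05). PARP9 and PARP14 are known as interferon-stimulated genes.

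The other lysine deacetylases are zinc-dependent and use no NAD, and all 11 were tested. In hypoxia 4 were higher and 2 lower, beside 11.6% and 12% of all genes, and the median of the list was 0.08 on the log2 scale. With the GC trend removed, HDAC2, HDAC5 and HDAC10 lost their calls (adjusted p = 0.22, 0.087 and 0.53), and the others kept theirs. HDAC11 rose from 8.30 to 12.5 CPM in hypoxia (log2 fold change 0.59, adjusted p = 0.0055), a value of 0.42 with the GC trend removed. In the KO 3 were higher and 1 lower, beside 14.9% and 15.4% of all genes, none of them past the fold limit.

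Of 17 partners and regulators of sirtuins, a list that holds CCAR2 itself, 2 were higher and 6 lower in hypoxia, beside 11.6% and 12% of all genes tested. In the KO 1 was higher and 5 lower, beside 14.9% and 15.4%. With the GC trend removed, HIC1, E2F1, PRKAA1, CLOCK and BMAL1 lost their calls in hypoxia (adjusted p = 0.83, 0.11, 0.21, 0.78 and 0.093). The other genes called in hypoxia kept theirs. Besides CCAR2, PRKAA2, the catalytic alpha-2 subunit of the energy sensor AMPK, was past the fold limit in the KO, at 21.0 CPM in WT normoxia and 13.9 in the KO (log2 fold change -0.59, adjusted p = 6.3e-05). Of 15 genes whose proteins are deacylated by mitochondrial sirtuins, 13 were tested. In hypoxia 4 were higher and 2 lower, and in the KO 3 were higher and 4 lower, beside the same shares of all genes. SOD2 and OPA1 were lower in hypoxia (log2 fold change -0.31 and -0.29, adjusted p = 0.0023 and 0.0089). With the GC trend removed SOD2 kept its call, OPA1 lost it (adjusted p = 0.13) and HADH passed as higher (adjusted p = 0.027). No lower gene was past the fold limit in hypoxia or the KO, so the genes named next all rose. IDH2, the mitochondrial isocitrate dehydrogenase and a SIRT3 substrate, rose in hypoxia from 6.68 ± 0.72 to 13.3 ± 0.27 CPM (SD, n = 4; log2 fold change 0.98, adjusted p = 5.3e-05). ACADVL, a fatty acid dehydrogenase, rose from 307 to 446 CPM (log2 fold change 0.53, adjusted p = 0.00018). ACSS1, the mitochondrial acetyl-CoA synthetase that SIRT3 deacetylates, rose in the KO from 5.28 ± 0.25 to 20.2 ± 1.38 CPM (SD, n = 4; log2 fold change 1.94, adjusted p = 7.1e-09), and ALDH2, an aldehyde dehydrogenase, from 43.5 to 62.7 CPM (log2 fold change 0.53, adjusted p = 1.0e-05).

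**Figure D5:**
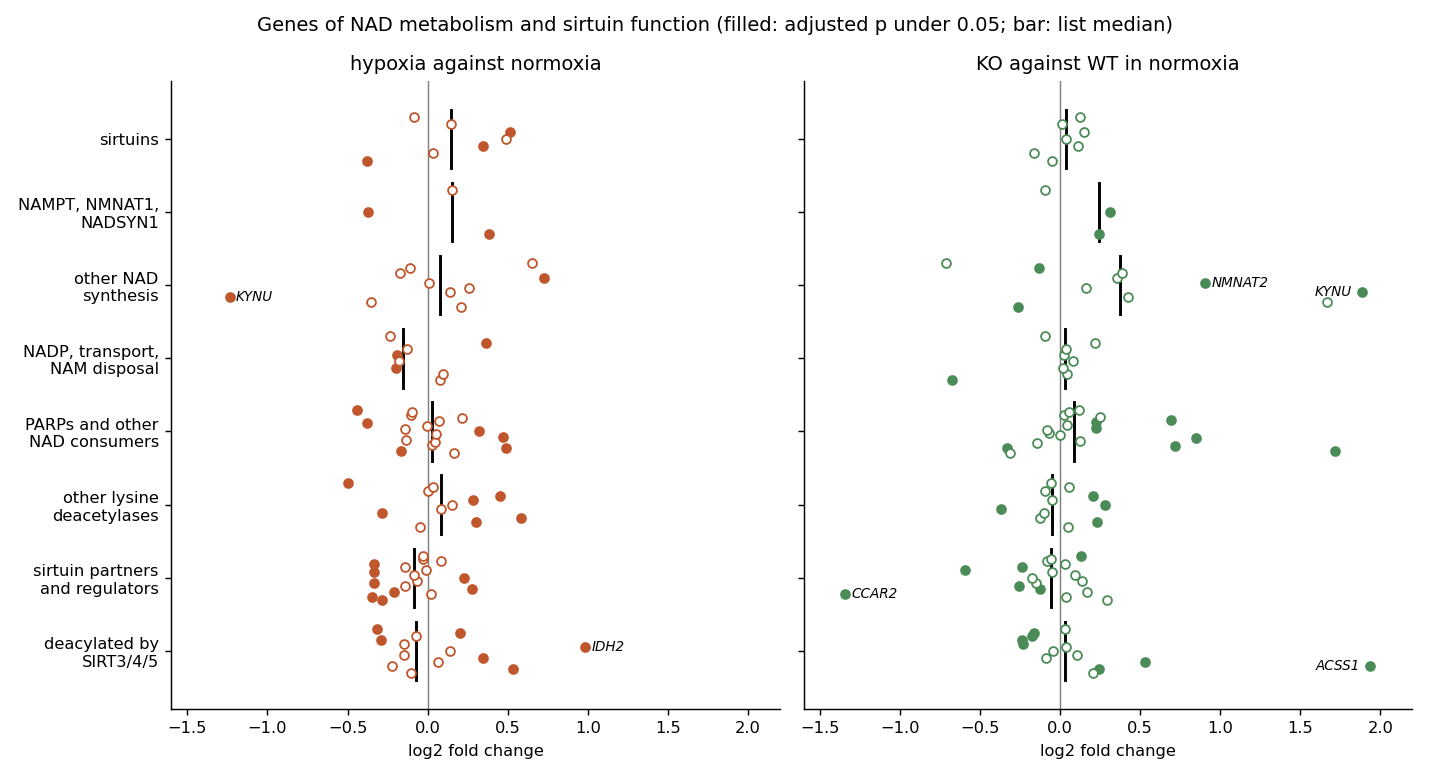
Log2 fold change (horizontal axis) of every tested gene of 8 lists in hypoxia (left) and in the KO (right). Filled points have an adjusted p under 0.05 and black bars are list medians. ACSS1 at 1.94 and KYNU at 1.88 lie far to the right in the KO, and CCAR2 at -1.34 to the left.

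The genes whose pattern over the 12 libraries was most like that of SIRT1, by Pearson r of log2 CPM among 14704 other genes with a mean of at least 100 counts, were GOLPH3, MGAT2 and USP12 (r = 0.96 for each). For NAMPT they were MFSD1, ZFAND5 and GALNT1 (r = 0.99 for each). These values rest on 12 libraries in 3 groups and are a description.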

How the data were processed

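RNA sequencing of 12 libraries was analysed, 4 per group. Per the methods, the authors aligned cleaned reads with Hisat2 and quantified genes with StringTie, whereas the submitters' processing notes name HISAT2, SAMtools and featureCounts. The deposited values were taken to be estimated counts per gene, whole numbers not scaled to library size, so rounding changed none. The genome build of the counting is not given in the sources used here. Kits differ between the labels and the methods, and the methods name fewer replicates than the libraries at hand. The members, gene lists and named genes were chosen with earlier results of these data known. From each list, up to 5 genes past an adjusted p of 0.05 and an absolute log2 fold change of 0.5 were named by size of change. A mean of at least 100 counts was also required. KYNU in hypoxia was named outside this rule. So were, in the KO, PNP, AFMID, NMRK1, PARP1, CD68 and the NAD synthesis genes of few counts. In hypoxia, KRT19, SOD2, OPA1 and the list genes named for a call lost or gained with the GC trend removed were also outside it.

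Pairs of groups were fitted with edgeR 4.0.16 in R 4.3.3 (TMM, filterByExpr, glmQLFit and glmQLFTest, Benjamini-Hochberg adjustment over all genes tested), and 95% intervals used the fitted degrees of freedom. The procedure was tested on simulated data for hypoxia against normoxia, with the same dispersion for every gene. There edgeR recovered 55% of genes changed by 0.5 on the log2 scale and 89% of those changed by 1. Smaller changes were not simulated. DESeq2 1.42.0 and limma-voom 3.58.1 were alternatives. CPM were scaled over all 12 libraries. Lengths and overlaps came from GENCODE v29, in which 58396 of the 60664 identifiers occur. The trend with GC content was removed as a lowess offset per library. Replicates of a group differed by a chi-square of 14.0 to 97.6 per degree of freedom, so no column was a copy of another of its group. Because the values are estimates, this cannot tell whether columns came from the same library. No column of the table was left out.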

Additional observations from a re-analysis of the deposited data

Results flagged for a closer look

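Levels of the 10 members, of the genes that met the naming rule and of the controls were examined for a library far from the other 3 of its group. The measure was the gap to the nearest library over the range of the group. Of 84 groups examined, 4 had a ratio above Dixon's critical value at 95%, and about 1 in 20 is flagged by chance. SIRT7 in WT normoxia replicate 1 (28.7 CPM, others 34.05 to 34.97) had a ratio of 0.853. NADSYN1 in WT hypoxia replicate 2 (50.1 CPM, others 52.6 to 53.0) had a ratio of 0.836. AOX1 in WT normoxia replicate 1 (62.1 CPM, others 54.7 to 55.3) had a ratio of 0.920. PARP10 in WT normoxia replicate 1 (19.0 CPM, others 22.01 to 22.29) had a ratio of 0.913. Without WT normoxia replicate 1, NAMPT and NADSYN1 passed in hypoxia and in the KO as before. SIRT3 in hypoxia lost its call without that library (log2 fold change 0.32, adjusted p = 0.053).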

How the results depend on the processing

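SIRT1, SIRT5, NAMPT and NADSYN1 in hypoxia and NAMPT and NADSYN1 in the KO kept their direction and passed under every alternative run, namely DESeq2, limma-voom, other scalings (RLE, upper quartile), other filters (none, or 10 counts throughout), 1 fit over all 12 libraries, the replicate block and the loss of each library in turn. They also did so under 2 settings chosen after seeing the data, a removed GC trend and the removal of the 3 libraries with the smallest sums. With the fold limit, members higher and lower were 1 and 0 in hypoxia, 0 and 0 in the KO and 1 and 0 in KO against hypoxia. In KO against hypoxia, members lower numbered 4 with DESeq2, limma-voom or the filter of 10 counts throughout, 5 with upper-quartile normalization and 1 with RLE normalization or no filter, and members higher numbered 1 without the 3 libraries of smallest sums, and the causes were not tested. Leaving out a library gave 2 to 3 members higher and 2 to 2 lower in hypoxia, 2 to 2 and 0 to 0 in the KO, and 2 to 3 and 1 to 2 in KO against hypoxia. With the GC trend removed, CCAR2 in hypoxia was at -0.12 in place of 0.02 and passed (adjusted p = 0.035, against 0.80). With the length of the principal transcript, SIRT3, SIRT4 and SIRT5 made up 7.85%, 10.2% and 8.41% of the sirtuin level in WT normoxia, hypoxia and the KO, since the lengths differ. Per kilobase of merged exons, leaving out a library moved the share between 8.60% and 8.96% in WT normoxia. In hypoxia it lay between 11.3% and 12.01%, and in the KO between 9.41% and 9.57%.

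Replicate numbers did not pair the libraries, with correlations of same-numbered deviations between -0.01 and 0.07 in hypoxia and between -0.02 and 0.02 in the KO. With the number as a replicate block, members higher and lower were 3 and 2 in hypoxia, 2 and 0 in the KO and 3 and 3 in KO against hypoxia. SIRT4 had the fewest counts of the members, 24 to 97 per library, and the widest intervals.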
